A study of Gallus gallus with 24 samples.

Results

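The left and the right gonad of female chicken embryos were compared at embryonic day (E) 9.5 by sequencing of poly(A) RNA. The 6 libraries labelled E9.5 were taken from a series of 24, with 3 libraries of the left gonad and 3 of the right. All embryos were female, of the Leghorn genotype, and no treatment or allele is labelled for either side. The labels name a Zymo direct-zol miniprep for the RNA and NEB for the libraries. The labels give neither the number of embryos behind a library nor whether libraries came from separate embryos, so a p-value here is set by library-to-library spread, part or all of which may be technical.

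Female chickens keep a single functional ovary. The left gonad grows a thick outer cortex, in which germ cells collect, while the right gonad stays small and regresses. Both gonads lie against the mesonephros, the kidney of the embryo, and close to the adrenal gland, so tissue of either can be caught in a dissection. The comparison asks which transcripts differ between the sides once the gonads have taken on ovarian character, and what part of the difference moves with kidney transcripts.

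Totals were 17114756, 18134785 and 18778297 counts in the left libraries and 15697222, 19970859 and 15463670 in the right ones. After the removal of rarely counted genes, 16694 of 24154 genes were tested, and their median log2 change was -0.015. Levels are CPM, which are read counts scaled to a common library size, and levels of different genes are not compared because gene lengths were not used. The count setting for strand is not given in the sources used here, so reads of a gene and of an overlapping or antisense neighbour cannot be told apart.

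Left and right gonads differed in many genes. Of the 16694 genes tested, 2171 passed an adjusted p of 0.05 in edgeR's quasi-likelihood test, which is 13% of them. In the left gonad 857 genes were higher (5.13%) and 1314 were lower (7.87%). Each count over a gene list below is to be read beside these shares. At least a 2-fold difference was reached by 258 of the higher genes (1.55% of all tested) and by 761 of the lower genes (4.56%), together 1019 (6.1%). In 4375 genes (26.2%) no left library lay within the range of the right ones or the reverse, with left above right in 1740 (10.4%) and below it in 2635 (15.8%). Sides that do not overlap were a condition for naming the leading genes below, so for them this is no separate result. What a shared library number marks is not labelled, but at this stage same-numbered left and right libraries had correlated deviations from their group means. With the number as a block 3343 genes passed (20%), 1488 of them higher (8.91%) and 1855 lower in left (11.1%). The total was 1099, 1318 and 1305 without left 1, left 2 and left 3. Without right 2 it was 1013 (5.97%), with 557 higher (3.28%) and 456 lower (2.69%).

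**Figure D1:**
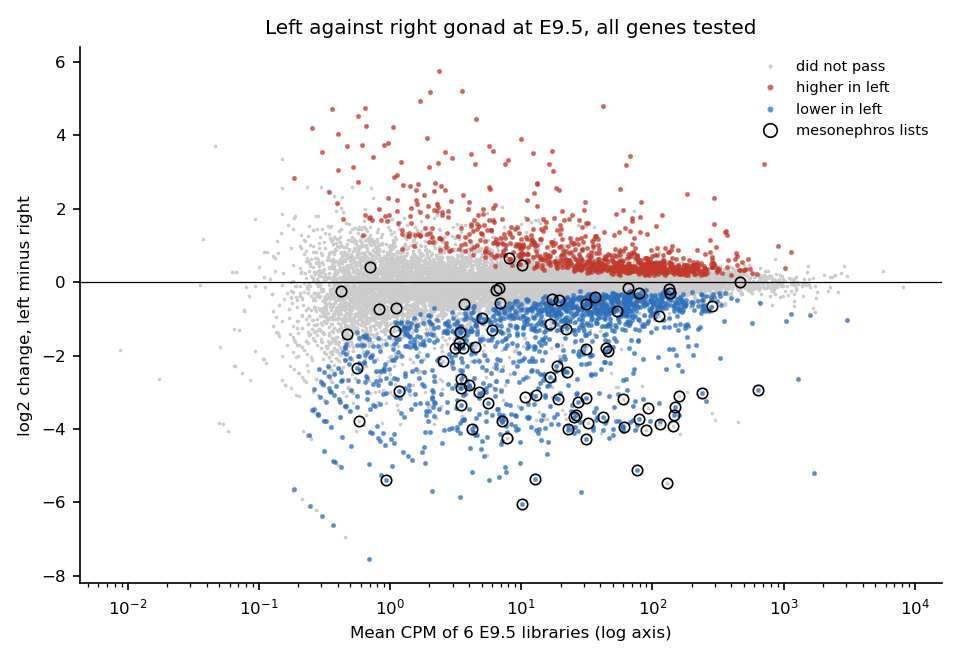
Log2 change, left minus right (vertical axis), against the mean CPM of the 6 libraries on a log axis, with 1 point per gene tested. Genes higher in left are red, genes lower in left blue, the others grey, and members of the 4 mesonephros lists are circled. Most circled genes lie below 0, down to -6.04 for KCNJ1.

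The right libraries carried kidney transcripts. Summed over 36 genes of the proximal tubule, the part of a nephron that takes up sugars and amino acids, the level was 652.3, 1111 and 537.1 CPM in left and 1938, 7255 and 4134 CPM in right. The ranges did not overlap, and right 2 stood highest. Distal tubule genes (18) summed to 236.5, 273.8 and 179.9 CPM in left and to 292.9, 1889 and 546.4 CPM in right. The collecting and nephric duct list (16 genes) gave 47.6, 64.9 and 59.2 CPM in left and 94.9, 257.3 and 137.8 CPM in right. No marker of the proximal tubule, distal tubule, duct or podocyte lists was at 0 in all libraries of either side, so left libraries carried these transcripts too, at lower sums. A bulk library cannot tell fewer cells of a type from less RNA per cell.

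The leading genes lower in left showed the same order of the right libraries. KCNJ1, the potassium channel of the distal nephron, had 0.119, 0.714 and 0.0516 CPM in left and 3.04, 50.1 and 6.41 CPM in right. AvBD10, an avian beta-defensin, had 84.0, 178.4 and 7.28 CPM in left and 709.1, 7850 and 1378 CPM in right. In both genes the sides did not overlap, and right 2 exceeded the other right libraries several fold. Their log2 changes were -6.04 ± 1.74 (SE) and -5.20 ± 1.68, with adjusted p of 0.028 and 0.045. Both lost the call without left 1, left 2, left 3 or right 2 (adjusted p between 0.056 and 0.18).

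Both belong to the 15 genes with the largest fall in left. Others of these were TMEM52B, which like KCNJ1 stands in a mesonephros list, ATP12A, a proton and potassium pump, PLG, the plasma protein plasminogen, SIM1, a transcription factor, and PSCA, TMEM72, TMEM213, LRRC19, GAL3ST2, K123, SELENBP1L3 and C24H11orf34. The log2 changes of these others ran from -5.85 in ATP12A to -4.67 in C24H11orf34. TMEM72 had an adjusted p of 0.0035, passed in each fit that left out 1 library, and had 0.358, 0.879 and 0.103 CPM in left against 3.68, 33.7 and 6.80 CPM in right. Each of the others lost the call in at least 1 such fit. With a mesonephros score as covariate, described further on, none of the 15 passed.

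**Figure D2:**
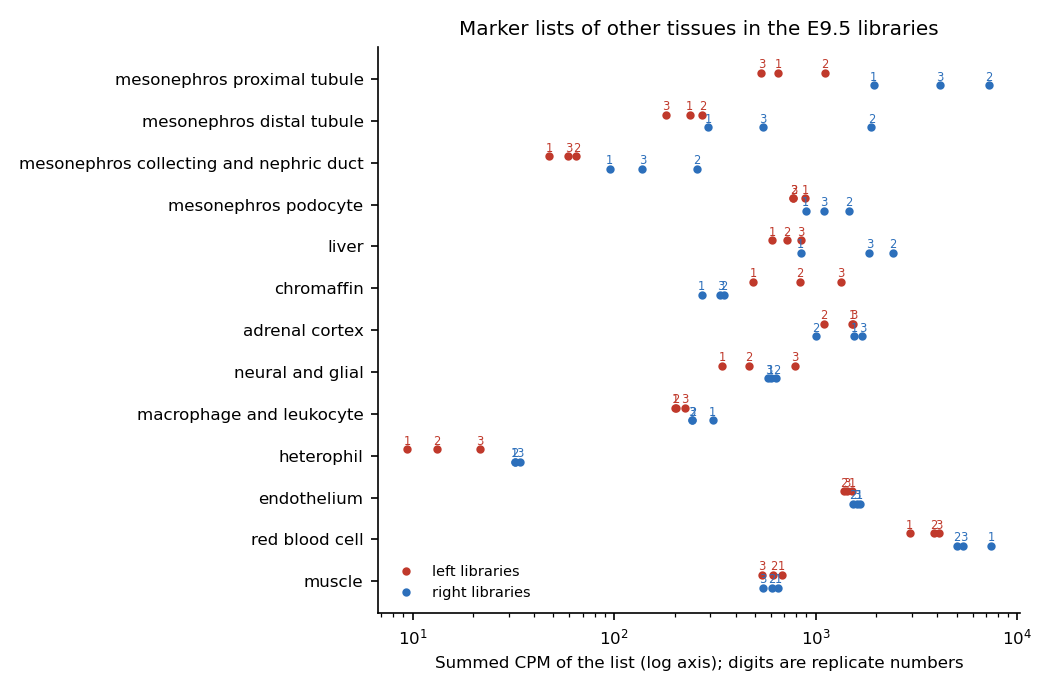
Summed CPM of marker lists of other tissues in each of the 6 libraries, on a log axis, with left libraries in red above right libraries in blue and the replicate number beside each point. Right 2 lies highest in the tubule, duct, podocyte and liver lists, and left 3 highest in the chromaffin list (1328 CPM).

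Counts over the kidney lists followed. Of 36 proximal tubule genes tested 15 were lower and 0 higher in left, with a median log2 change of -3.11, against -0.015 over all genes tested. The distal tubule list had 7 lower of 18 (median -3.49), the duct list 5 of 14 (-1.72) and the podocyte list 4 of 12 (-0.69). The number lower in the proximal tubule list was 3 without left 1, left 3 or right 2 and 20 without right 1. In the distal list it was 0 without those same 3 libraries, 3 without left 2 and 11 without right 1. The duct list kept 2 calls without left 1, left 3 or right 2 and 3 without left 2, and the podocyte list 1, 2 and 1 without left 1, left 3 and right 2. Liver genes, 5 of 18 lower with a median of -2.76, had sums of 608.0, 722.1 and 843.6 CPM in left and of 843.4, 2425 and 1848 CPM in right. Their calls too went to 0 without left 1, left 3 or right 2.

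A score was made of the mean log2 CPM over the proximal tubule list. It was 2.10, 3.31 and 1.68 in left and 4.17, 5.79 and 5.08 in right, so at E9.5 it does not overlap between the sides and the slope rests on all 24 libraries. With the score as a covariate 764 genes passed (4.58%), 398 higher (2.38%) and 366 lower in left (2.19%). Of the 857 genes first called higher 339 were still called (39.6%), and of the 1314 called lower 298 (22.7%). The contrast was wider among genes past 2-fold. There 178 of 258 higher genes (69%) and 117 of 761 lower genes (15.4%) still passed. Right 2 was the highest of the 6 libraries for 796 of the 1314 lower genes (60.6%, beside 20.5% of all genes tested). A gene called lower tends to have its highest library on the right side through its choice, so this share is only a description of right 2 beside the other right libraries.

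**Figure D3:**
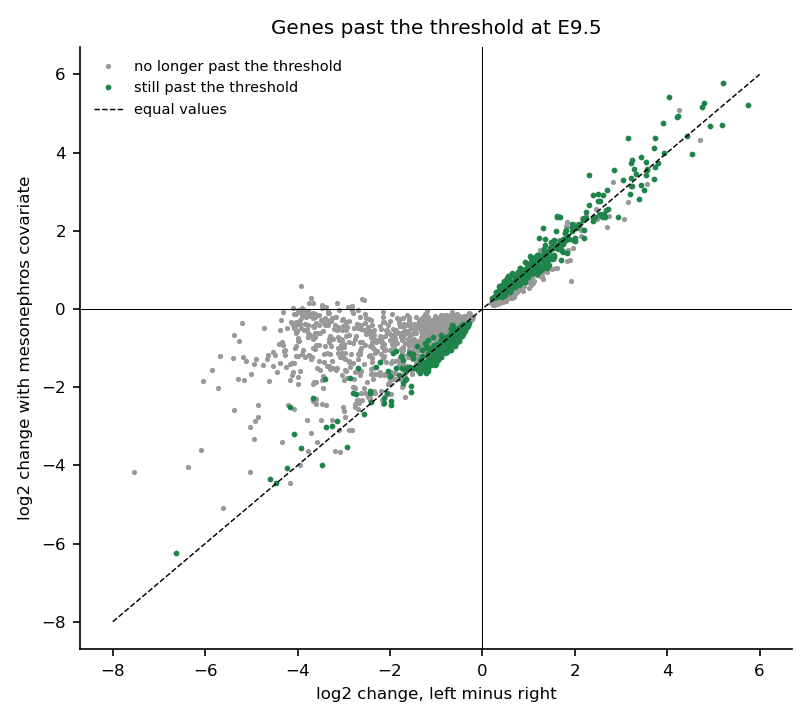
Log2 change, left minus right, of the 2171 genes that passed (horizontal axis) against the same change with the mesonephros score as covariate (vertical axis). Green genes still passed and grey ones did not; the dashed line marks equal values. Many genes lower in left move towards 0, and some higher in left do too, such as TDRKH from 0.9996 to 0.55. Others higher in left move away from 0, such as DRD4 from 3.91 to 4.77 and MSTN from 5.22 to 5.79. Of the genes called higher 339 of 857 still passed, and of those called lower 298 of 1314.

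NTN1, which encodes the secreted guidance cue netrin-1, was among the largest rises in left. It had 79.4, 79.2 and 84.3 CPM in left and 1.14, 5.53 and 1.90 CPM in right. Every left library stood far above every right one. The log2 change was 4.79 ± 0.53 (SE; adjusted p = 1.0e-05), a fitted 27.7-fold difference, and 5.26 with the mesonephros covariate. EPHB1, a receptor for ephrins, had 156.9, 157.9 and 160.4 CPM in left against 44.4, 57.1 and 61.2 CPM in right, and rose by 1.55 ± 0.15. UNC5A, a netrin receptor, rose by 1.18 ± 0.24 (adjusted p = 0.0035). Of 57 axon guidance genes tested 9 were higher and 7 lower in left. The higher count was 5 without left 3 or right 2, and the lower count 3, 4 and 2 without left 2, left 3 and right 1. SEMA3E, a semaphorin, was lower (-1.05 ± 0.28), with no call without left 1, left 3 or right 1 (adjusted p 0.066 to 0.099).

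Genes of the TGF-beta superfamily changed in both directions. MSTN, myostatin, known as a brake on muscle growth, had 9.18, 7.47 and 4.03 CPM in left and 0.127, 0.261 and 0.131 CPM in right. Its sides did not overlap, and it rose by 5.22 ± 0.54 on the log2 scale (adjusted p = 3.6e-06). BMP3, a BMP family ligand, had 10.9, 11.0 and 6.04 CPM in left and 2.54, 3.03 and 3.07 CPM in right, a log2 change of 1.69 ± 0.30. GDF11, another ligand of the family, rose by 1.49 ± 0.38, and lost its call without right 2 (adjusted p = 0.060). FST, follistatin, which binds activins, was lower in left with 20.02, 18.7 and 17.4 CPM against 32.5, 33.2 and 33.9 CPM in right (-0.83 ± 0.18; adjusted p = 0.0053). Over the 50 BMP, activin and TGF-beta genes 4 were higher and 8 lower, with a median of -0.13.

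WNT genes split. WNT6, a secreted WNT ligand, had 30.5, 36.1 and 31.3 CPM in left and 5.45, 11.96 and 12.5 CPM in right, a rise of 1.71 ± 0.23 (adjusted p = 6.5e-05). WNT10A, another ligand, rose by 2.65 ± 0.48 and SP5, a transcription factor induced by WNT signals, by 1.33 ± 0.29. WNT9B, a ligand of the nephric duct in mice, was lower in left (-2.98 ± 0.83; adjusted p = 0.024) but not without left 1, left 2, left 3 or right 2 (0.060 to 0.087). Among 52 WNT genes tested 7 were higher and 7 lower. The lower count was 3 without left 1, left 2, left 3 or right 2 and 4 without right 3.

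**Figure D4:**
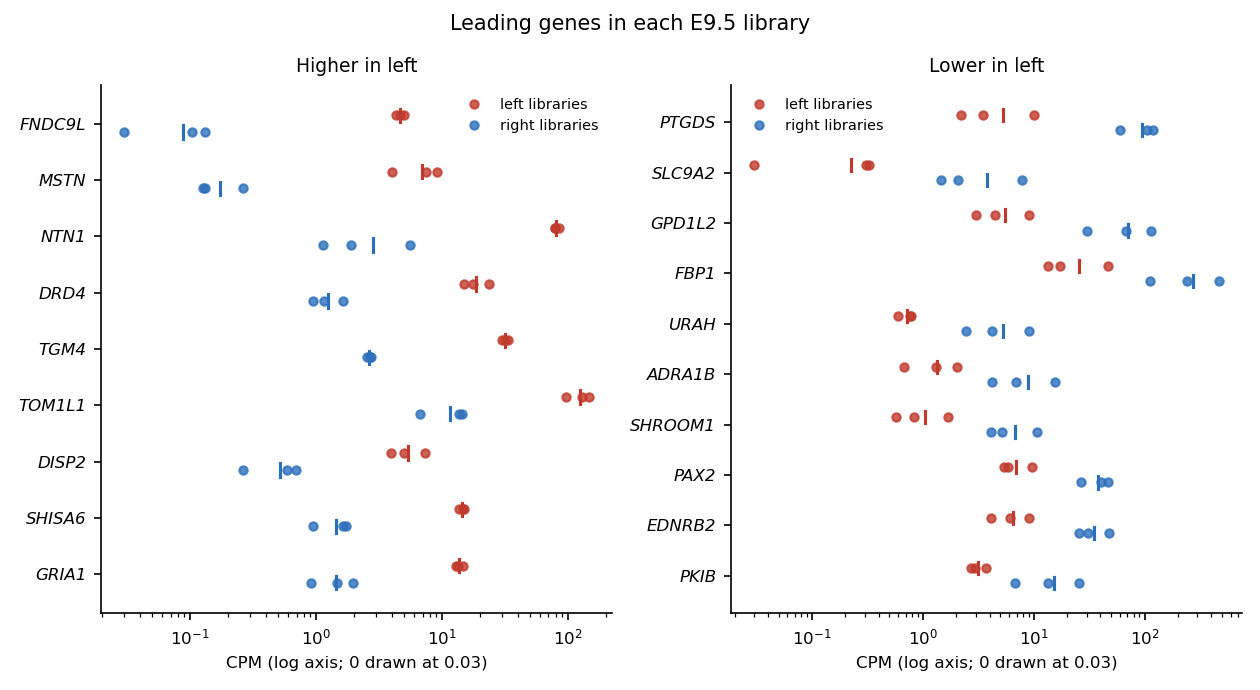
CPM of leading genes in each E9.5 library on a log axis, with left libraries in red, right libraries in blue and the bar at the mean of 3; a level of 0 is drawn at the left end. The panels hold genes with large rises and large falls in left that passed without each single library and with the mesonephros covariate. No gene overlaps between the sides, which was a condition of their choice.

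Receptors and signalling proteins better known from neurons stood out on both sides of 0. DRD4, the dopamine D4 receptor, had 17.5, 23.8 and 14.9 CPM in left and 0.951, 1.15 and 1.63 CPM in right. GRIA1, a subunit of AMPA-type glutamate receptors, had 13.4, 14.6 and 13.0 CPM in left and 1.97, 1.46 and 0.915 CPM in right. Both genes stood at low levels in all 3 right libraries. DRD4 rose by 3.91 ± 0.50 (adjusted p = 4.9e-05) and GRIA1 by 3.23 ± 0.29 (adjusted p = 7.9e-07). SHISA6, a protein that associates with AMPA receptors, had 13.7, 14.7 and 15.02 CPM in left against 0.951, 1.72 and 1.63 CPM in right, a rise of 3.32 ± 0.32. HTR1E, a serotonin receptor, had 21.6, 18.8 and 28.0 CPM in left against 4.50, 1.83 and 4.51 CPM in right, a rise of 2.67 ± 0.27. None of these 4 genes overlapped between the sides. ADRA1B, an adrenergic receptor, went the other way with 1.31, 2.03 and 0.671 CPM in left and 4.18, 15.7 and 6.99 CPM in right (-2.75 ± 0.43; adjusted p = 0.00042). Of 63 transmitter receptor genes 7 were higher and 13 lower, with a median of -0.26. The lower count was 4, 6, 8 and 5 without left 1, left 2, left 3 and right 2.

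Further large rises were in genes of varied roles. RASD2, a small GTPase, had 129.6, 114.8 and 98.3 CPM in left and 14.9, 10.7 and 12.1 CPM in right, a rise of 3.19 ± 0.19 (adjusted p = 6.2e-09). RGS7, a regulator of G-protein signalling, had 33.7, 34.3 and 24.8 CPM in left against 4.06, 4.91 and 2.29 CPM in right (3.03 ± 0.35). Both sets of libraries were clear of each other. TOM1L1, an adaptor in endosomal sorting, had 146.7, 129.4 and 97.0 CPM in left against 6.66, 14.3 and 13.5 CPM in right (3.43 ± 0.29). TGM4, a transglutaminase known from the mammalian prostate, had 33.6, 29.8 and 31.3 CPM in left against 2.54, 2.66 and 2.75 CPM in right (3.57 ± 0.27). Every one of these rises passed in each fit that left out 1 library and with the mesonephros covariate. FNDC9L rose most, by 5.75 ± 0.81, at 4.29, 4.67 and 5.01 CPM in left and 0, 0.104 and 0.131 CPM in right. DISP2, of the Dispatched family, rose by 3.39 ± 0.51 and TNFRSF6B, a decoy receptor of the TNF receptor family, by 3.22 ± 0.46. FAM162B rose by 2.696 ± 0.86 (adjusted p = 0.045), with left 1 at 0.954 CPM near right 1 at 0.824, and passed only with all libraries or without left 1 (0.064 to 0.17 in the other fits).

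Among 18 genes of the surface epithelium, which builds the cortex, 3 were higher and 1 was lower in left, with a median of 0.02. EMX2, a homeobox factor needed for the urogenital ridge in mice, had 106.8, 112.9 and 101.1 CPM in left and 29.5, 36.8 and 33.5 CPM in right. KRT7, a keratin of simple epithelia, had 592.2, 529.2 and 459.3 CPM in left and 229.6, 202.3 and 166.6 CPM in right. The sides did not overlap in either, with rises of 1.68 ± 0.13 (adjusted p = 9.4e-08) and 1.401 ± 0.15 (adjusted p = 5.8e-06). LHX9, a LIM homeobox factor of the early gonad, had 186.8, 185.9 and 140.3 CPM in left and 119.4, 97.7 and 73.9 CPM in right, a rise of 0.82 ± 0.18, which missed the threshold with the mesonephros covariate (adjusted p = 0.067). Outside that list LAMB3, a chain of a basement membrane laminin of epithelia, rose by 3.93 ± 0.64 (adjusted p = 0.00063). TBX18, a T-box factor of mesothelium, was lower in left with 4.17, 3.19 and 3.51 CPM against 9.51, 5.53 and 6.86 CPM in right (-1.01 ± 0.21).

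**Figure D5:**
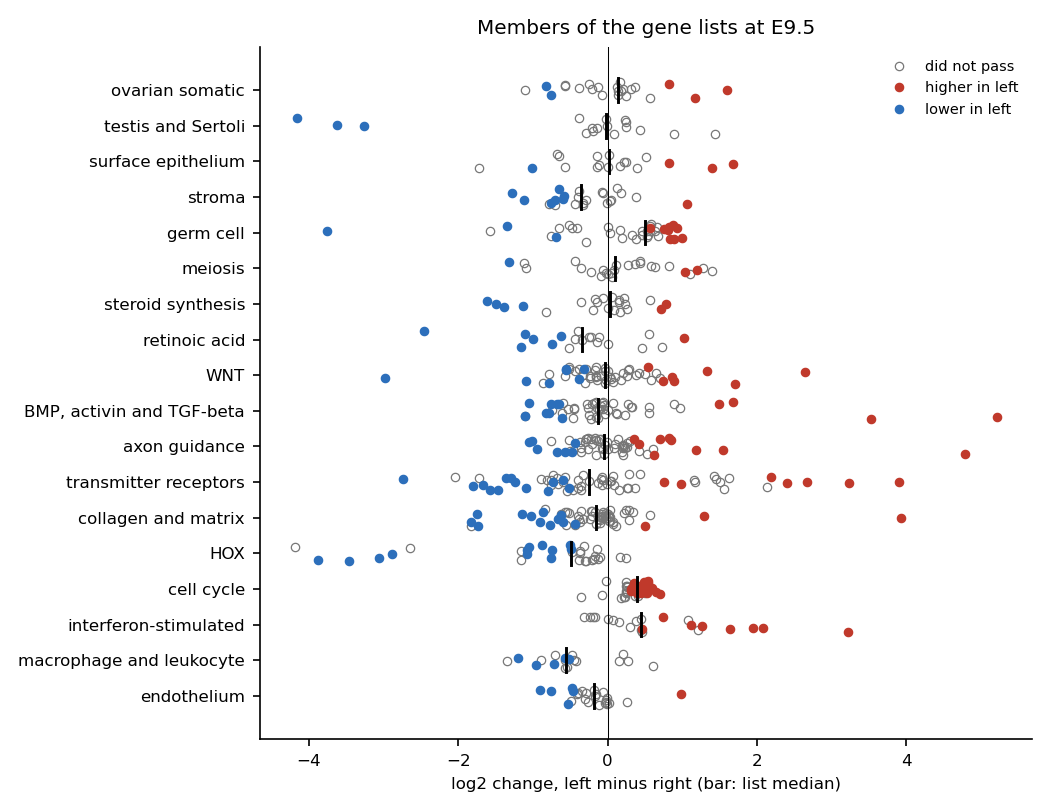
Log2 change, left minus right, of each tested member of 18 gene lists. Filled red points passed higher in left, filled blue points passed lower in left, and open points did not pass. The black bar is the list median. It is highest for germ cell genes (0.50) and lowest for macrophage and leukocyte genes (-0.56), followed by HOX genes (-0.49).

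Of 23 ovarian somatic genes 3 were higher and 2 lower in left, 5 called in all, beside 13% of all genes tested. CYP19A1, the aromatase that makes oestrogens, had 3446, 3359 and 2781 CPM in left and 2741, 2537 and 3292 CPM in right. FOXL2, a transcription factor of the ovary, had 72.2, 72.5 and 70.8 CPM in left and 48.1, 46.8 and 100.3 CPM in right. The sides overlapped in both genes, with log2 changes of 0.16 ± 0.33 (adjusted p = 0.80) and 0.14 ± 0.27 (adjusted p = 0.78). ESR1, the oestrogen receptor alpha, had 60.7, 53.7 and 35.7 CPM in left and 27.2, 18.3 and 21.3 CPM in right. It rose by 1.17 ± 0.30 (adjusted p = 0.017), but without left 1 or right 2 the adjusted p was 0.061 and 0.067. IRX5, an Iroquois factor of the ovary in mice, rose by 1.60 ± 0.32 (adjusted p = 0.0031).

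Of 22 steroid synthesis genes 2 were higher and 4 lower in left, 6 called in all, against 13% of all genes tested. CYP17A1, which makes androgen precursors, had 2279, 2094 and 2787 CPM in left and 1730, 1637 and 3075 CPM in right (0.15 ± 0.23; adjusted p = 0.72). HSD17B1, a late enzyme of oestrogen synthesis, had 214.8, 199.8 and 190.6 CPM in left and 98.6, 128.5 and 182.5 CPM in right. Its libraries did not overlap, and its log2 change of 0.56 ± 0.19 missed the threshold (adjusted p = 0.052), which it passed with the replicate block (0.024). STS, steroid sulfatase, was lower in left with 25.2, 26.2 and 16.3 CPM against 64.4, 84.7 and 57.5 CPM in right (-1.61 ± 0.36; 0.084 with the mesonephros covariate). CYB5A, SULT1E1 and HSD17B4 were lower, at -1.49, -1.39 and -1.14 and lost their calls without left 1, left 3 or right 2, HSD17B4 also without left 2 (adjusted p 0.052 to 0.19). The lower count of the list was 1 without left 1, left 3 or right 2. Its higher count was 2 to 3 without each single library. With the mesonephros covariate 1 gene of the list was higher and 0 were lower. The 2 higher genes are not named because the rule takes up to 4 genes per list.

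No gene of the testis list passed as higher in left. AMH, the anti-Müllerian hormone, had 77.2, 113.2 and 109.0 CPM in left and 66.4, 90.8 and 97.6 CPM in right (0.23 ± 0.32; adjusted p = 0.69). DMRT1, the male determinant on the Z chromosome, had 23.7, 25.7 and 25.8 CPM in left and 15.4, 18.3 and 29.9 CPM in right (0.24 ± 0.25; adjusted p = 0.58). SOX9, a Sertoli cell factor, stood at 2.03, 2.25 and 2.74 CPM in left and 0.444, 1.20 and 0.915 CPM in right. Those libraries did not overlap, yet the change of 1.43 ± 0.48 missed the threshold (adjusted p = 0.055) and passed with the replicate block (0.011). PTGDS, which makes prostaglandin D2, had 3.52, 10 and 2.22 CPM in left and 60.4, 118.0 and 104.4 CPM in right, a log2 change of -4.17 ± 0.71 (adjusted p = 0.00088). With the mesonephros covariate it was at -2.50 (adjusted p = 0.0095). DHH, a hedgehog ligand, was lower, at -3.63 ± 0.998, at 0.775, 2.58 and 0.620 CPM in left against 4.88, 30.0 and 14.5 CPM in right, and lost the call without left 1, left 3 or right 2 (0.083 to 0.10). The 17 testis and Sertoli genes held 0 higher and 3 lower.

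Of 36 germ cell genes 9 were higher and 3 lower in left, with a median of 0.50. DDX4, the germ cell helicase vasa, had 81.8, 104.1 and 86.3 CPM in left and 52.9, 55.1 and 46.3 CPM in right, a rise of 0.82 ± 0.22 (adjusted p = 0.022). The sides did not overlap, but without left 2 or right 3 the adjusted p was between 0.052 and 0.069. DAZL, a germ cell RNA-binding protein, had 127.6, 159.7 and 114.2 CPM in left and 121.0, 111.8 and 87.4 CPM in right (0.33 ± 0.25; adjusted p = 0.42). TDRKH and RNF17, tudor proteins of the piRNA pathway, rose by 0.9996 ± 0.30 and 0.93 ± 0.28, TDRKH without a call when left 2, left 3, right 1 or right 2 was left out (0.072 to 0.19) and RNF17 with a call only in the full set or without right 1 (0.051 to 0.11 in the other fits). LIN28A, an RNA-binding protein of pluripotent cells, was lower in left, at -1.35 ± 0.32, and not without left 1 (0.054). CLDN3, a tight junction protein, was lower, at -3.76 ± 1.20, with no call without left 1, left 2, left 3 or right 2 (0.069 to 0.25). The higher count of the list was 5, 1, 3, 2 and 4 without left 1, left 2, left 3, right 2 and right 3, and 1 with the mesonephros covariate. With that covariate the log2 changes of DDX4, RNF17 and TDRKH were 0.87, 0.83 and 0.55 (adjusted p = 0.067, 0.17 and 0.42). The fall in the count is thus not a measure of how far the changes shrank.

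Meiotic genes moved singly. SYCP3, a protein of the synaptonemal complex, had 12.2, 18.9 and 16.5 CPM in left and 7.99, 6.89 and 8.24 CPM in right (1.04 ± 0.21; adjusted p = 0.0031). SMC1B, a meiotic cohesin, rose by 1.20 ± 0.30, and missed the threshold without left 2 (adjusted p = 0.054). STRA8, which opens meiosis, had 5.01, 4.73 and 7.33 CPM in left and 3.55, 2.30 and 3.79 CPM in right; its 0.83 ± 0.34 did not pass (adjusted p = 0.11; 0.033 with the replicate block). SPO11, which cuts DNA for recombination, was lower, at -1.32 ± 0.40, but not without left 2, left 3, right 1 or right 2 (0.062 to 0.17). Of 26 meiosis genes tested 2 were higher and 1 lower, 3 called in all, beside 13% of all genes tested. Without left 2 the higher count was 1, and without right 1 it was 4. The lower count was 0 without left 2, left 3, right 1 or right 2, and 4 without right 3.

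Of 43 cell cycle genes tested 23 were higher and 0 lower, with a median log2 change of 0.39. PLK1, a mitotic kinase, had 204.8, 204.0 and 215.1 CPM in left and 110.8, 117.2 and 170.6 CPM in right. CCNE2, a cyclin of the start of DNA synthesis, had 44.0, 47.0 and 34.3 CPM in left and 24.4, 28.1 and 24.5 CPM in right. The changes were small beside those of the leading genes, 0.65 ± 0.12 (adjusted p = 0.0020) and 0.70 ± 0.15 (adjusted p = 0.0062), and the sides did not overlap. AURKA, a spindle kinase, rose by 0.55 ± 0.13. TOP2A, a topoisomerase of dividing cells, rose by 0.60 ± 0.18, with no call in any fit that left out a library other than right 3 (adjusted p 0.060 to 0.14). The count of higher genes was 12 without left 1 and 13 without right 2, 19 to 22 without each of the others, and 11 with the mesonephros covariate. CCND1, a cyclin of the first growth phase, had 96.0, 90.6 and 73.3 CPM in left and 101.6, 81.7 and 80.1 CPM in right (-0.02 ± 0.11; adjusted p = 0.94).

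Of 22 interferon-stimulated genes 8 were higher and 0 lower in left, with a median of 0.45, and 6 to 8 were higher without each single library. MX1, an antiviral GTPase, had 35.6, 32.9 and 19.6 CPM in left and 4.44, 2.87 and 2.16 CPM in right. IRF1, a transcription factor of the interferon response, had 22.2, 24.3 and 17.3 CPM in left and 4.63, 4.70 and 5.75 CPM in right. The sides were apart in both, with rises of 3.22 ± 0.37 (adjusted p = 1.3e-05) and 2.08 ± 0.19 (adjusted p = 8.8e-07). OASL and IFIT5, both induced by interferon, rose by 1.95 ± 0.40 and 1.64 ± 0.28. Macrophage and leukocyte markers lay lower in left. They summed to 201.4, 202.2 and 224.3 CPM in left and to 308.2, 244.7 and 242.1 CPM in right.

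Of 18 macrophage and leukocyte genes 5 were lower and 0 higher in left. CD74, the invariant chain of class II antigen presentation, had 27.1, 28.6 and 32.1 CPM in left and 64.7, 57.9 and 48.5 CPM in right, a log2 change of -0.96 ± 0.11 (adjusted p = 1.1e-05). CSF1R, the receptor that macrophages depend on, had 30.2, 28.1 and 26.5 CPM in left and 67.1, 37.7 and 34.8 CPM in right (-0.72 ± 0.17). In both the sides did not overlap, and CSF1R lost its call without left 3 or right 1 (adjusted p 0.051 to 0.061). Without left 1, left 2, left 3, right 1 and right 2 the lower count of the list was 3, 3, 2, 2 and 3, and without right 3 it was 7. Red blood cell genes summed to 2928, 3873 and 4069 CPM in left and to 7429, 5027 and 5407 CPM in right, with 0 of 13 genes called. The part of blood cells in these differences was not tested.

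Of 24 stromal genes 7 were lower and 1 was higher in left, with a median of -0.36. TCF21, a transcription factor of gonadal and renal mesenchyme, had 39.1, 43.4 and 44.7 CPM in left and 84.7, 100.6 and 90.7 CPM in right. PDGFRA, a receptor of mesenchymal cells, had 187.3, 176.2 and 157.1 CPM in left and 365.5, 225.0 and 229.1 CPM in right. The libraries did not overlap, and the log2 changes of -1.12 ± 0.18 (adjusted p = 0.00051) and -0.65 ± 0.13 (adjusted p = 0.0040) held with the mesonephros covariate, at -0.99 and -0.71. TWIST1, a mesenchymal factor, was lower, at -1.28 ± 0.32, and not without left 1 (adjusted p = 0.073). THY1, a surface protein of fibroblasts, was higher by 1.06 ± 0.29, and not without left 3, right 1 or right 2 (0.060 to 0.10). The lower count of the stromal list was 3 without left 1 and 4 without left 2. Collagen and matrix genes had 3 higher and 12 lower of 60. There the lower count was 5, 3, 3, 7 and 6 without left 1, left 2, left 3, right 1 and right 2.

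Hedgehog, FGF and endothelial receptors added single genes. PTCH1, the hedgehog receptor and a target of the pathway, had 20.1, 18.7 and 25.2 CPM in left and 34.9, 38.6 and 29.9 CPM in right (-0.69 ± 0.15; adjusted p = 0.0050). SPRY1, an inhibitor induced by FGF signals, had 55.2, 52.2 and 52.1 CPM in left and 79.0, 79.6 and 75.4 CPM in right. The sides did not overlap and lay close together within each, and it fell by 0.55 ± 0.08 (adjusted p = 0.00026). KDR, a receptor of the growth factor VEGF, had 200, 188.7 and 174.3 CPM in left and 94.6, 91.0 and 99.5 CPM in right, a rise of 0.98 ± 0.12. VWF, TEK and PLVAP, which also mark endothelium, went the other way with -0.91 ± 0.21, -0.76 ± 0.16 and -0.53 ± 0.11. Of 25 endothelial genes 1 was higher and 5 lower, with 3 lower without left 2 or right 2.

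Of 19 retinoic acid genes 1 was higher and 6 were lower in left, with a median of -0.35. ALDH1A3, an enzyme that makes retinoic acid, had 91.8, 79.5 and 105.2 CPM in left and 251.0, 180.2 and 189.3 CPM in right, a log2 change of -1.17 ± 0.17 (adjusted p = 0.00017; -1.42 with the mesonephros covariate). ALDH1A2, another such enzyme, had 569.8, 493.8 and 417.7 CPM in left and 611.2, 535.8 and 463.4 CPM in right, which overlap (-0.12 ± 0.16; adjusted p = 0.67). CYP26B1, which breaks retinoic acid down, did not pass (-0.40 ± 0.24; adjusted p = 0.30). CRABP2, a binding protein for it, had 22.8, 24.3 and 22.8 CPM in left against 10.9, 11.0 and 12.4 CPM in right, a rise of 1.03 ± 0.19. The call for ALDH1A1 did not hold. This further enzyme of retinoic acid synthesis was lower, at -2.46 ± 0.75 and -0.26 with the mesonephros covariate, with no call without left 1, left 2, left 3 or right 2 (0.062 to 0.20). LRAT, which stores retinol as esters, was lower, at -1.11 ± 0.26, and not without left 2 (0.055).

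HOX genes, which pattern the body along its length, were lower in left with 12 of 31 and higher with 0, at a median of -0.49. The largest falls were in the HOXD cluster. HOXD8 had 1.67, 3.63 and 1.19 CPM in left and 8.24, 60.2 and 26.8 CPM in right, and HOXD3 had 0.715, 1.54 and 0.671 CPM in left and 3.61, 11.0 and 7.06 CPM in right. The order of the right libraries was that of the kidney lists. HOXD8 fell by 3.88 ± 0.97 and HOXD3 fell by 2.88 ± 0.65, and with the mesonephros covariate they were at -1.06 (adjusted p = 0.32) and -1.37 (adjusted p = 0.15). HOXD8, HOXD4 and HOXD9 lost their calls without left 1, left 3 or right 2 (0.058 to 0.17), and HOXD3 kept its call without each library. The count of lower genes was 4, 7, 7 and 6 without left 1, left 2, left 3 and right 2, and 8 with the covariate.

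Some genes lower in left passed without each single library and with the mesonephros covariate. All but PAX2, C7 and BMF were named only by a rule that asks for this and for sides that do not overlap. For them neither is a separate result. PAX2, a factor of nephric and Müllerian ducts, had 5.90, 9.62 and 5.37 CPM in left and 26.7, 46.8 and 40.1 CPM in right, a log2 change of -2.44 ± 0.24 (adjusted p = 2.6e-06; -2.15 with the covariate). EDNRB2, an avian endothelin receptor known from pigment cell precursors, had 6.14, 9.12 and 4.13 CPM in left and 25.9, 48.2 and 31.2 CPM in right (-2.44 ± 0.29). C7, a complement protein, had 7.39, 8.13 and 6.51 CPM in left and 31.3, 20.3 and 18.0 CPM in right (-1.66 ± 0.23). In all of these every right library exceeded every left one, and C7 stood highest in right 1 where the kidney sums were lowest among the right libraries. FBP1, an enzyme of sugar synthesis that is itself in the list behind the score, fell by 3.41 ± 0.64 and SLC9A2, a sodium and proton exchanger, fell by 4.08 ± 0.66. GPD1L2, URAH, SHROOM1 and PKIB had log2 changes of -3.67, -2.87, -2.696 and -2.29. In PAX2, EDNRB2, FBP1, GPD1L2, URAH, SHROOM1, PKIB and SLC9A2 right 2 was highest, as in the kidney sums. PAX2 is itself in the collecting and nephric duct list. BMF, a pro-apoptotic protein, had 42.1, 40.6 and 41.8 CPM in left and 86.3, 67.5 and 71.0 CPM in right (-0.85 ± 0.13, adjusted p = 0.00040). Its list of 30 apoptosis genes had 1 higher and 2 lower, 3 called in all, beside 13% of all genes tested.

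Further genes named here did not keep their calls with the mesonephros score. On the side of higher genes these were DDX4, RNF17, TDRKH, OASL, SLC6A2, MRAP, NKX3-2, THY1, TOP2A and FAM162B, with adjusted p from 0.0655 in NKX3-2 to 0.42 in TDRKH. On the side of lower genes they were SEMA3E, TEK, VWF, PTCH1, TWIST1, SPO11, WNT9B, DHH, CLDN3, HOXD4, HOXD9, SULT1E1, CYB5A and HSD17B4, from 0.054 in SEMA3E to 0.65 in CLDN3. A lost call did not always go with a smaller log2 change. With the score DDX4 moved from 0.82 to 0.87, NKX3-2 from 2.25 to 2.37 and MRAP from 4.26 to 5.1. SEMA3E moved from -1.05 to -1.15 and SPO11 from -1.32 to -1.44. The others moved towards 0, for example CYB5A from -1.49 to -0.38 and HSD17B4 from -1.14 to -0.30. Why calls were lost was not tested. With the 6 libraries alone, which leaves fewer samples for the spread, SP5, AURKA, PDGFRA, TBX18, LIN28A, LRAT, CSF1R and TMEM213 missed the threshold as well, from 0.051 in TMEM213 to 0.14 in CSF1R.

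Of 9 adrenal cortex genes 2 were higher and 1 was lower in left, beside 13% of all genes tested called. The list summed to 1520, 1098 and 1538 CPM in left and to 1554, 1005 and 1701 CPM in right, which overlap. MC2R, the receptor for the pituitary hormone ACTH, had 1.61, 1.54 and 2.22 CPM in left and 0.254, 0 and 0.131 CPM in right, a rise of 3.80 ± 0.75 (adjusted p = 0.0029). MRAP, the accessory protein of that receptor, had 71 counts over the left libraries and 3 over the right, a ratio of 21.9 (95% interval 7.19 to 109, counting error only). It lost its call without left 3, right 1, right 2 or right 3 (adjusted p 0.056 to 0.11). NR0B1, a nuclear receptor of adrenal and gonad, was lower in left (-0.76 ± 0.14). Chromaffin cell genes summed to 488.8, 836.0 and 1328 CPM in left and to 271.8, 349.7 and 336.4 CPM in right. CHGB, a granule protein of these cells, made up a large part of the left sums. It had 303.9, 513.8 and 652.6 CPM in left and 69.1, 143.3 and 86.7 CPM in right (2.30 ± 0.49). The chromaffin score, the mean log2 CPM over the list, was 2, 3.02 and 4.35 in left and 2.41, 2.22 and 2.74 in right. By this score the sides overlapped, with left 1 lowest. SLC6A2, the noradrenaline transporter, rose by 1.11 ± 0.24. With a chromaffin score as covariate 2004 genes passed (12%), 954 higher (5.71%) and 1050 lower (6.29%), and DRD4, HTR1E, GRIA1 and NTN1 were at 4.14, 2.57, 3.32 and 4.71. MRAP and FAM162B did not pass there, at 3.18 (adjusted p = 0.093) and 1.44 (adjusted p = 0.087).

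Of 14 genes of the embryonic left-right axis 3 were higher and 2 lower in left, 5 called in all, against 13% of all genes tested. FGF8, a growth factor of early patterning, had 0.358, 0.220 and 0.207 CPM in left and 1.78, 1.36 and 1.11 CPM in right (-2.42 ± 0.48; adjusted p = 0.0031). NKX3-2, a homeobox factor, had 1.31, 2.42 and 1.91 CPM in left and 0.444, 0.104 and 0.654 CPM in right (2.25 ± 0.59). The sides did not overlap in either, and NKX3-2 lost its call without left 2 or right 2 (0.054 to 0.080). The count of higher genes was 1 without left 2 or right 2, and that of lower genes 1 without left 1, left 3 or right 2.

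Calls among the remaining genes and lists went either way, and many of these lists held calls in 1 direction only. ADARB2, of the family of RNA-editing deaminases, had 8.88, 6.76 and 5.53 CPM in left and 3.23, 2.25 and 1.77 CPM in right (1.54 ± 0.28; adjusted p = 0.0013). ADAMTS17, a secreted metalloprotease, had 20.7, 18.5 and 19.0 CPM in left and 44.6, 41.0 and 32.02 CPM in right (-1.02 ± 0.19; adjusted p = 0.0016). ATF3, a stress-induced transcription factor, rose by 1.56 ± 0.22 and was the 1 called of 21 immediate early and heat shock genes. Not passing were NR5A1 (0.21 ± 0.25), WNT4 (0.18 ± 0.24), RSPO1 (-0.38 ± 0.33) and BMP7 (0.33 ± 0.12; adjusted p = 0.084, and 0.017 with the replicate block), which act in gonad formation. The same held for PALMD, FAS, TGFBI, WNT11, RPH3A and C4H4ORF32, between -0.31 and -0.09, and for CUBN, the proximal tubule receptor cubilin (-3.10 ± 1.07; adjusted p = 0.060, and 0.023 with the block). Over all genes tested 5.13% were higher and 7.87% lower in left. Higher and lower counts were 1 and 0 of 24 for cholesterol synthesis, 1 and 2 of 18 for steroid and gonadotropin receptors, and 0 and 1 of 18 for Notch. They were 0 and 3 of 19 for hedgehog and PDGF, 0 and 3 of 27 for FGF, 1 and 1 of 25 for hypoxia and glycolysis, and 1 and 1 of 10 for the Müllerian duct. Of the lists of other tissues chromaffin had 2 and 0 of 16, neural and glial 1 and 1 of 18, heterophil 0 and 1 of 8, and muscle 0 and 1 of 15. Without single libraries each of these counts lay between 0 and 4.

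The leading rises were also seen at E8. NTN1 averaged 92.8 CPM in left and 2.73 CPM in right there, a log2 change of 5.10, beside 4.79 at E9.5, 1.98 at E6.5 and -0.57 at E5. DRD4 did not pass at E5 (0.50; adjusted p = 0.87) or E6.5 (0.20; adjusted p = 0.90), and rose by 4.36 at E8 and 3.91 at E9.5. MSTN and GRIA1 were higher in left at all 4 stages, MSTN by 7.01, 4.93, 6.17 and 5.22 and GRIA1 by 3.30, 4.39, 4.22 and 3.23 in order of age. CPNE8, a copine, was lower in left at each stage, at -1.89, -1.20, -0.94 and -0.83. Of 19 genes listed with their side differences at earlier stages known, 10 were higher and 3 lower at E9.5, beside 5.13% and 7.87% of all genes tested. The list was taken from these same data, so its count is only a description. ADARB2, of that list, was lower in left at E6.5, at -1.92, and higher at E9.5.

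The side difference at E9.5 was tested against that at E8. No gene passed in edgeR's test (0 of 16694, or 0%), with 832 genes at an unadjusted p under 0.05 (4.98%) and a smallest adjusted p of 0.27, and DESeq2 called 6. MX1 had 3.22 at E9.5 and 1.74 at E8 (adjusted p of the difference 0.81), and RGS7 3.03 and 1.58 (0.73). PTGDS was lower, at -4.17 at E9.5 and -2.89 at E8 (0.997 for the difference).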

How the data were processed

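The deposited table holds raw read counts per gene for all 24 libraries, not normalised by the authors. Per the submitters' processing notes, Trim Galore 0.6.7, STAR 2.7.10a, HTSeq 2.0.0 and the build GRCg6a were used. The counting mode is not given in the sources used here. Of the 24154 genes 1617 had no count. Genes were kept by filterByExpr (minimum count 10, minimum total 15), scaled by TMM, and fitted with edgeR 4.0.16 (R 4.3.3, limma 3.58.1) by quasi-likelihood to all 24 libraries at once, with 8 group means (16 residual degrees of freedom). P-values were adjusted by Benjamini-Hochberg over all 16694 genes, with a threshold of 0.05, and standard errors were derived from the F statistic. The fit was checked on simulated data. Depth ran from 15463670 to 19970859 counts at E9.5. Intervals cover counting error only.

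Named are up to 15 largest changes each way (with a symbol, mean of at least 2 CPM, sides not overlapping), 10 each way that also passed without each single library and with the mesonephros covariate, up to 4 passing genes per list, and a panel. The rule, the 41 gene lists and the comparison were chosen with earlier results of these data known. Of 1150 list names 1079 matched the table's names and 7 a gene ID or synonym. Some genes that meet the rule are not reported here. Same-numbered left and right libraries at E9.5 had correlated deviations from their group means (r = 0.226, 0.381 and 0.258, against -0.259 to 0.012 for other pairs), so the number was used as a block in an alternative. Deviations cancel within a group, so the values of other pairs are not independent of these. Chi-square per degree of freedom within a group ran from 9.35 to 63.4, so no libraries were merged. Alternatives were DESeq2 1.42.0, RLE scaling, other filters, the block, 2 covariates, the 6 libraries alone and leaving out each library.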

Additional observations from a re-analysis of the deposited data

How the results depend on the processing

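The total of 2171 genes was 3343 with the replicate block, 764 with the mesonephros covariate, 1032 with the 6 libraries alone and 1013 to 2332 without single libraries. The 857 higher in left were 1488, 398 and 314 under these 3 settings and 557 to 993 without single libraries, and the 1314 lower were 366 with the covariate, 718 with the 6 libraries alone and 456 to 1339 without single libraries. DESeq2 called 6 genes for the side difference at E9.5 against E8, where edgeR called 0. The causes were not tested, except that the 6 libraries alone leave fewer samples to estimate the spread. Of 148 named genes with a call 60 kept it under every alternative and 75 without each single library. Some were named for passing without each single library, so these counts are partly set by choice. Over all genes called, 378 of 857 higher (44.1%) and 300 of 1314 lower (22.8%) passed without each single E9.5 library. Calls were lost by 74 with the mesonephros covariate, 31 with the chromaffin covariate (chosen after seeing the data), 65 without right 2, 59 without left 3 and 55 without left 1, but by 0 with DESeq2 or RLE scaling. No named gene with a call changed sign, but some without one did, among them FOXL2, AMH, NR5A1 and WNT4, which were at -0.05, -0.01, -0.18 and -0.22 with the mesonephros covariate. The replicate block changed the call of SOX9, STRA8, HSD17B1, BMP7, CUBN (gained) and ELAVL4 (lost, adjusted p = 0.072), and of no other named gene. The limit of these data is 3 libraries a side, a kidney signal that does not overlap between the sides, and genes below about 1 CPM, where a library holds few reads. Family members with near-identical copies (SELENBP1L3, GPD1L2) may share reads.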

Other observations

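Of 15 genes of antigen presentation, class I and class II, put together after their values were seen and therefore not tested as a list, 6 were higher and 1 was lower in the left gonad at E9.5. TAP2, a chain of the peptide transporter, had 18.5, 22.5 and 20.7 CPM in left and 7.67, 6.58 and 8.37 CPM in right (log2 change 1.45 ± 0.25 SE; adjusted p = 0.00097). B2M, the light chain of class I molecules, had 170.7, 194.8 and 182.9 CPM in left and 103.9, 116.3 and 135.4 CPM in right (0.63 ± 0.13; adjusted p = 0.0037). The sides overlapped in neither. ERAP1, which trims peptides, and TAPBP and TAPBPL, which load them, rose by 1.04 ± 0.19, 1.002 ± 0.21 and 1.05 ± 0.24. TAP1 (0.93 ± 0.34; adjusted p = 0.074) and the class I chain BF1 (0.84 ± 0.35; adjusted p = 0.12) did not pass, and BF2, its close copy, passed at 0.70 ± 0.23 (adjusted p = 0.047) but only in 1 of the 6 fits without a single library. BLB2, a class II chain, was lower in left (-0.91 ± 0.30; adjusted p = 0.0499) and also kept that in only 1 of the 6 fits.

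Keratin, desmosome, hemidesmosome and other epithelial adhesion genes, chosen in the same way, had 9 higher and 0 lower of 22. PPL, periplakin of the cell envelope, had 142.2, 108.6 and 94.6 CPM in left and 42.0, 42.6 and 50.2 CPM in right (1.36 ± 0.17; adjusted p = 4.4e-05). COL7A1, the collagen of anchoring fibrils, had 99.6, 94.6 and 97.7 CPM in left and 31.1, 25.01 and 54.3 CPM in right (1.404 ± 0.25). CDH3, P-cadherin, had 174.1, 203.9 and 160.5 CPM in left and 64.1, 104.8 and 121.6 CPM in right (0.89 ± 0.18). The 3 genes did not overlap between the sides and passed without each single library. KRT19, KRT18 and DSG2, also of epithelia, overlapped between the sides and did not pass (0.22 ± 0.15, -0.14 ± 0.30 and 0.00 ± 0.14). The desmosome genes DSP (-0.39 ± 0.19; adjusted p = 0.18) and PKP2 (-0.35 ± 0.12; adjusted p = 0.065) lay below 0 without passing. With the mesonephros covariate DSP was at -0.70 (adjusted p = 0.046).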
